A study of Mus musculus with 2 samples.

Results

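The 2-oxoglutarate-dependent dioxygenases are enzymes that oxidise a substrate with molecular oxygen, using ferrous iron and the metabolite 2-oxoglutarate, which leaves as succinate. They include the TET enzymes that oxidise methylated cytosine in DNA, the Jumonji-domain enzymes that remove methyl groups from histones, AlkB-family enzymes that act on nucleic acids, the prolyl hydroxylases that mark the hypoxia-inducible factors (HIF) for destruction, and the hydroxylases that modify collagen. Mutant IDH1, the isocitrate dehydrogenase altered in many gliomas, makes 2-hydroxyglutarate, which resembles 2-oxoglutarate and can inhibit many of these enzymes. Here 41 genes of this family were taken by name, and each of the 41 was found once among the 31053 genes of the count matrices. They were grouped by substrate into DNA demethylation and repair (5 genes), histone demethylation (17), RNA (4), HIF hydroxylation (4), collagen hydroxylation (6) and other substrates (5). What was measured is the RNA of these enzymes, not 2-hydroxyglutarate, enzyme activity or methylation.

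The data are droplet-based single-cell RNA counts of brain tumours in C57BL/6 mice, labelled as mutant IDH1 (mIDH1) tumour cells at the symptomatic stage. There were 2 libraries, replicates 1 and 2, and both belong to this single group, so no tumour with normal IDH1 and no normal brain was compared. Other alleles, the way the tumours were induced, the age of the mice and whether the libraries come from separate animals are not given in the sources used here, so the spread between libraries may be technical. Transcripts were counted as unique molecular identifiers (UMIs), 63001350 over 2704 barcodes in replicate 1 and 58915133 over 2266 in replicate 2.

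After removal of barcodes with fewer than 200 genes or more than 15% mitochondrial UMIs, 1740 and 1446 cells were left, and 10 barcode sequences occurred in both libraries. Tumour cells were those with at least 1000 CPM of Nras (CPM, UMIs of a gene per 1000000 UMIs), 1080 and 901 cells with a median of 41913.5 and 47352 UMIs. Their glioma markers (Sox2, Nes, Tnc and Cdkn2a) summed to 558 and 556 CPM, with all 4 detected. Host cells lay below that Nras level and carried a marker of their own. They were macrophages or microglia (C1qa, 237 and 217 cells), monocytes (Ly6c2 and Lyz2, 34 and 38), basophils (Mcpt8, 76 and 66) and T cells (Cd3e, 28 and 31). All 8 further markers of macrophages, 6 of monocytes, 7 of basophils and 7 of T cells were detected in their own class. All were also detected in the tumour sums, so their levels are given. In their class they summed to 72718 and 78382 CPM (macrophages), 10840 and 11281 (monocytes), 7842 and 6792 (basophils) and 7756 and 7138 (T cells). In tumour cells the same lists summed to 75.6 and 30.3, 447 and 466, 3.75 and 0.738, and 4.49 and 3.77 CPM. The T class also held markers of natural killer cells (1145 and 1323 CPM summed over 4 genes, all detected). In the basophil class, however, 6 and 4 cells with a UMI of a glioma marker held 40.9% and 45.4% of the UMIs, and the glioma markers summed to 207 and 239 CPM. The monocyte class held neutrophil markers (42280 and 20710 CPM summed over 5 genes, all detected), and 57 and 67 of the macrophage barcodes had no UMI of the nuclear RNA Malat1. Where a call against the host mean was lost or gained, or a call against 1 class was lost, without the glioma-marker cells or the barcodes lacking Malat1, the value without them is given too.

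Summed over all 41 genes, the family took a like share of the RNA in tumour and host cells. Tumour cells had 1161 and 1180 CPM, macrophages 1307 and 1282, monocytes 1147 and 1230, basophils 973 and 1069, and T cells 942 and 1182. The tumour values lay within the range of the host classes, but the make-up differed. HIF hydroxylases summed to 207 ± 7.13 CPM in tumour cells (SD, n = 2 libraries), above each host class (112 ± 8.07 in macrophages, 124 ± 9.77 in monocytes, 137 ± 30.1 in basophils and 146 ± 0.512 in T cells). Collagen hydroxylases ran from 40.7 ± 18.1 CPM in T cells to 306 ± 8.55 in macrophages, with tumour cells between them at 202 ± 3.5. Histone demethylases were lowest in tumour cells at 381 ± 8.65 CPM, against 475 ± 1.09 in macrophages, 471 ± 45.6 in basophils, 511 ± 110 in T cells and 584 ± 99.9 in monocytes. The DNA enzymes summed to 87.8 ± 1.52 CPM in tumour cells and 129 ± 4.20 in macrophages, and the RNA enzymes to 164 ± 4.40 and 129 ± 11.3. These sums were not tested. The basophil sums include the cells with a glioma-marker UMI. Without those cells basophils had less Egln1 (11.8 and 12.6 CPM) and Plod2 (0 counts) and more Kdm5b (59.0 and 50.5 CPM).

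**Figure D1:**
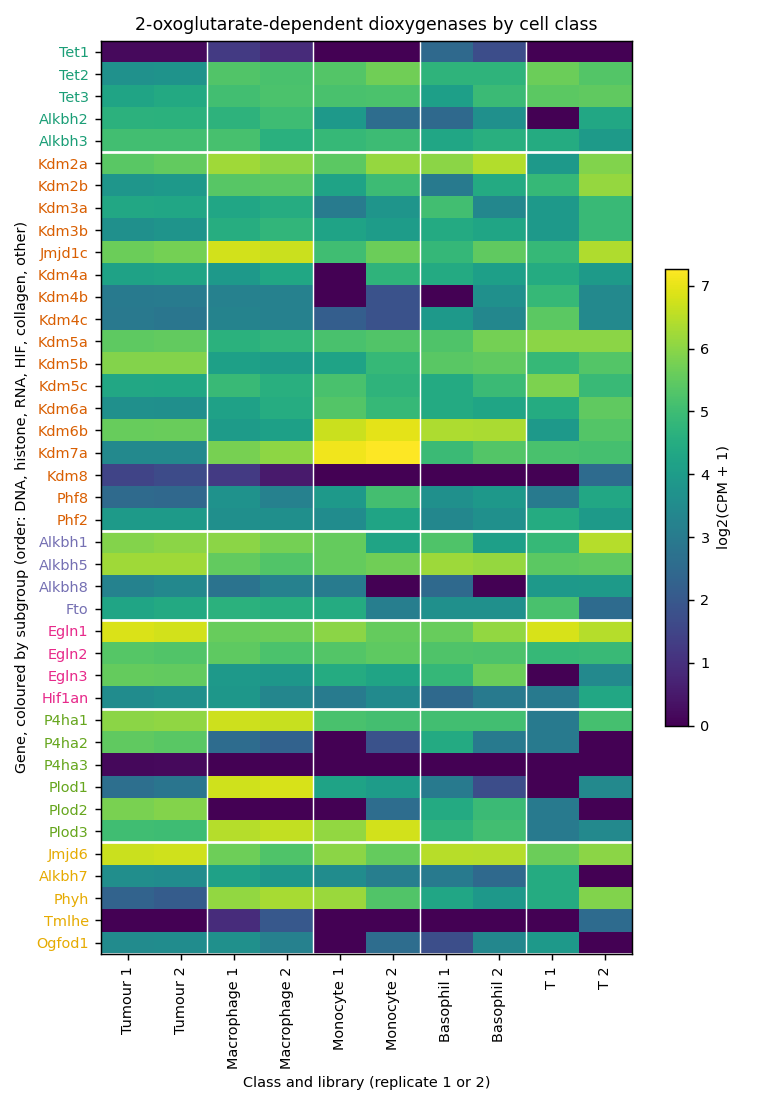
Level of each of the 41 genes (rows, coloured by substrate group) in the 5 cell classes of both libraries (columns), as log2(CPM + 1). Phyh, Plod1 and Kdm7a are dark in tumour cells and bright in macrophages, and Plod2 and P4ha2 the reverse.

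Tumour cells were then compared with the mean of the 4 host classes on raw counts summed per library and class. Of the 41 genes, 37 passed the filter of 5 CPM averaged over the sums; Tet1, Kdm8, P4ha3 and Tmlhe did not. A gene was called, and is termed higher or lower, when edgeR's quasi-likelihood test gave a Benjamini-Hochberg adjusted p under 0.05 over all 9828 genes tested and the log2 fold change was at least 1 in size. Of the 37 members, 4 were higher in tumour cells (Plod2, P4ha2, Egln3 and Kdm5b), against 25% of all genes tested. Lower were 7 (Phyh, Kdm7a, Phf8, Tet2, Plod1, Kdm6a and Kdm2b), against 15.1% of all genes. The median log2 fold change was 0.10 over the members and 0.25 over all genes. The calls are 10.8% and 18.9% of the members tested; the difference from all genes was not tested.

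Against each host class in turn, sharing the same tumour sums, the members split as follows. Against macrophages 7 were higher and 9 lower, where 24.5% and 24.9% of all genes were. Against monocytes 4 were higher and 9 lower (24.2% and 22.6% of all genes), and against basophils 4 and 4 (13.1% and 15.3%). Against T cells 6 were higher and 5 lower, where the background was 20.1% and 13.5%. Only 2 members, P4ha2 and Plod2, were higher in tumour cells against every one of the 4 host classes, and 3, Tet2, Kdm7a and Phyh, were lower against every one; over all genes these shares were 5.62% and 5.14%. With the host cells that hold a glioma-marker UMI left out, an alternative chosen after seeing the data, the calls against basophils came to 7 higher and 10 lower, and those against the host mean to 7 and 7. Over all genes the shares in that alternative were 25.3% and 22.3% against basophils and 26.2% and 17.7% against the host mean.

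**Figure D2:**
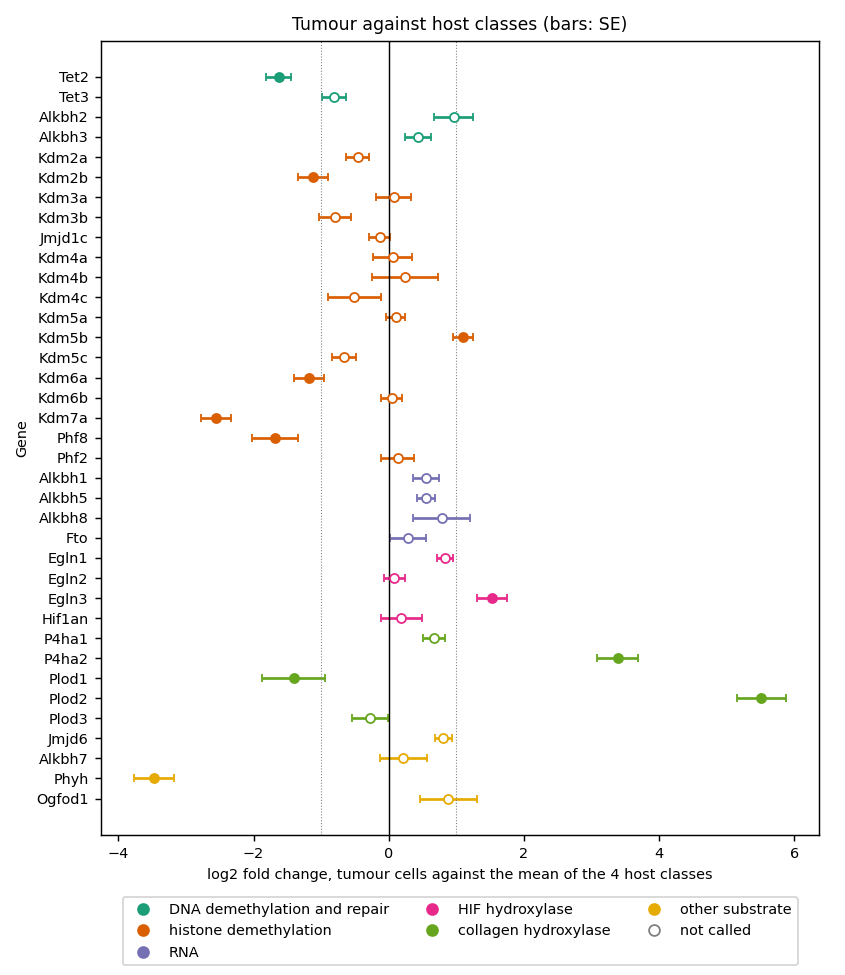
Log2 fold change of each tested member in tumour cells against the mean of the 4 host classes, with its standard error; filled points were called and open points were not, and dotted lines mark a log2 fold change of 1 in either direction. The called genes run from Phyh at -3.48 to Plod2 at 5.51, and 26 of the 37 were not called.

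Within the tumour cells, the members were followed along a hypoxia score and a cell cycle score. A score is the mean of log2(CPM + 100) over its genes, 14 for hypoxia (such as Vegfa, Slc2a1, Pgk1 and Bnip3) and 20 for the cell cycle (such as Mki67, Top2a and Cdk1), none of them a member. Cells were cut into tertiles (low, middle and high) within each library, 360 cells each in replicate 1 and 300 or 301 in replicate 2, and a gene was called at a log2 fold change of at least 0.5 between the high and the low tertile. Of 35 members tested, 13 were higher in the high hypoxia tertile and 1 was lower, where 5.14% and 5.15% of the 9047 genes tested were. The median log2 fold change was 0.34 over the members and -0.01 over all genes. In the high cell cycle tertile, 0 members were higher and 8 were lower, against 7.13% and 5.17% of 9046 genes. No member had a positive change there at an unadjusted p under 0.05, and DESeq2 also called 0 higher. The tertiles differed in more than their own score. The median cell cycle score fell from 7.13 and 7.10 in the low hypoxia tertile to 6.79 and 6.79 in the high one, and 16 of the 20 cell cycle genes were lower there. Median UMIs were 39014 and 43208 in the low hypoxia tertile and 41112.5 and 47207.5 in the high one. Between the cell cycle tertiles the depth differed more, at 33514.5 and 38532 UMIs in the low and 53797 and 63093 in the high tertile.

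**Figure D3:**
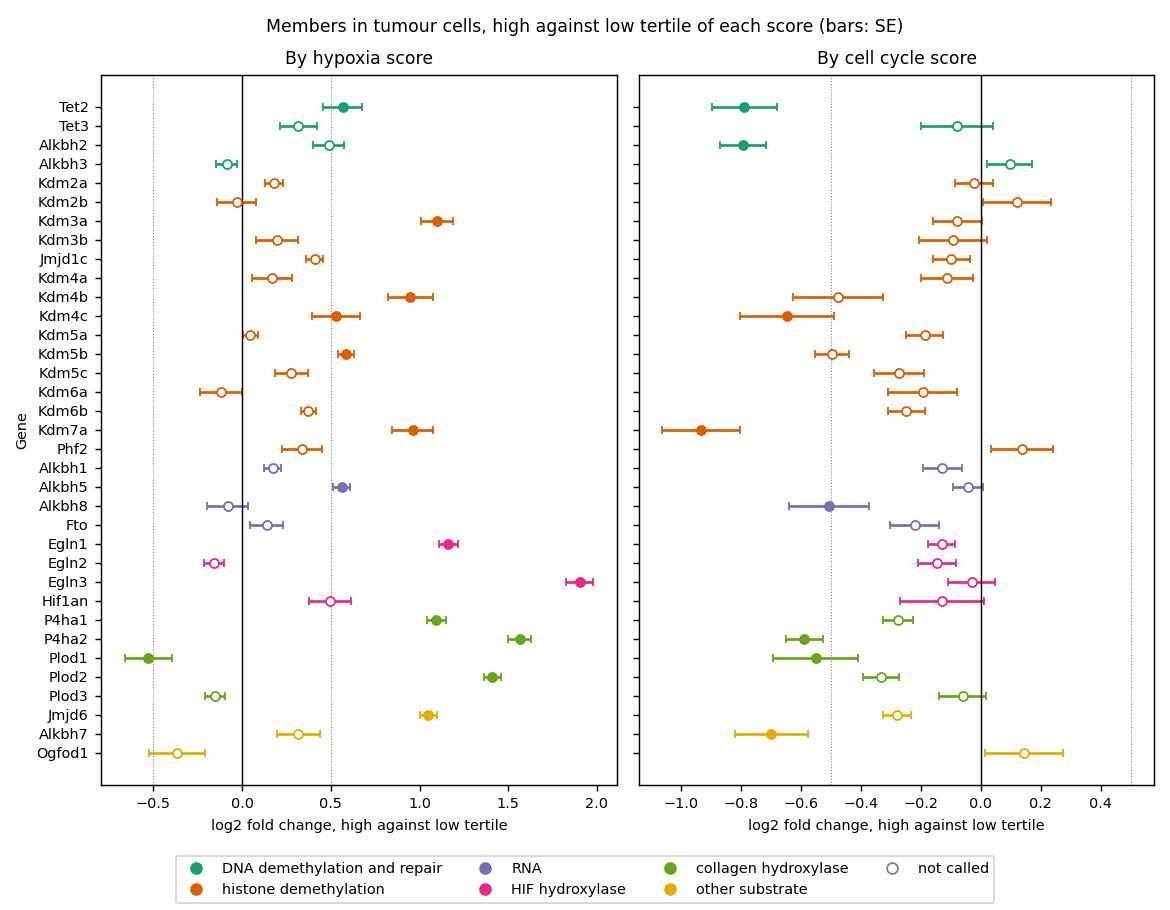
Log2 fold change of each of the 35 tested members between the high and the low tertile of tumour cells, by the hypoxia score (left) and the cell cycle score (right), with standard errors; filled points were called and dotted lines mark 0.5 in either direction. By hypoxia the called points lie to the right, up to 1.90 for Egln3, except Plod1, and by the cell cycle all 8 lie to the left, down to -0.93 for Kdm7a.

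To compare cells with a like cell cycle score, the hypoxia tertiles were cut again within the low cell cycle tertile alone. It holds 360 cells in replicate 1 and 301 in replicate 2, and this alternative was added after seeing the data. There 10 members were higher and 1 was lower, where 6.97% and 6.00% of 8949 genes were. Kdm3a, Kdm7a, Alkbh5, Egln1, Egln3, P4ha1, P4ha2, Plod2 and Jmjd6 were again higher, with log2 fold changes from 0.59 for Alkbh5 to 2.02 for Egln3. Plod1 was again lower. Tet2 (0.39), Kdm4b (0.73), Kdm4c (0.44) and Kdm5b (0.42) were not called there.

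The HIF prolyl hydroxylases Egln1, Egln2 and Egln3 hydroxylate the HIF alpha subunits when oxygen is present, which lets the VHL ligase bind and degrade them, and Hif1an hydroxylates an asparagine that blocks the coactivator contact. Egln1 and Egln3 are themselves textbook hypoxia-induced genes. Both are shown here with the 250 bases upstream of their RefSeq start, since both carried the motif ACGTG, the core of the element that HIF binds. Capitals mark ACGTG or its reverse complement CACGT, the sequence is 5′ to 3′ on the gene's strand, and the build is GRCm38.p6.
Egln1, chr8:124949255-124949504, minus strand: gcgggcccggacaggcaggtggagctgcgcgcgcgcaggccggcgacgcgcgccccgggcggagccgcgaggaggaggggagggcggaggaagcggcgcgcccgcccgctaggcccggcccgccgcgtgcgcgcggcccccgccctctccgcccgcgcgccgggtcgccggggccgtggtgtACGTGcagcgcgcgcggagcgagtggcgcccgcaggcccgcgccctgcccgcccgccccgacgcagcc
Egln3, chr12:54203875-54204124, minus strand: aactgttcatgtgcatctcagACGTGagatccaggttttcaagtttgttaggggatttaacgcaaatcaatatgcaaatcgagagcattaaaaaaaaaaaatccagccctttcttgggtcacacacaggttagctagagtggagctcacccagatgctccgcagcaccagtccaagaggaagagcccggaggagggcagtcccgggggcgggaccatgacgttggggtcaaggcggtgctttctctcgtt
The match starts at position -68 in Egln1 and at -229 in Egln3, counted back from the RefSeq start. In the GENCODE annotation Egln1 starts at 124949324, inside the printed window, so its match falls within the annotated gene.

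Egln3 (ENSMUSG00000035105, chromosome 12, 54178981 to 54203860, minus strand, GRCm38) had 46.1 and 45.1 CPM in tumour cells, 14.3 and 13.3 in macrophages, 21.2 and 17.8 in monocytes, 27.9 and 48.3 in basophils, and 0 and 9.73 in T cells. Tumour cells were above every host sum except the basophils of replicate 2. It was higher in tumour cells than in the host mean (log2 fold change 1.53 ± 0.22 SE, edgeR adjusted p = 3.97e-06) and higher than in each class but basophils. Without the cells that hold a glioma-marker UMI, its basophil level was 11.8 and 21 CPM, from 3 and 5 counts. Across the hypoxia tertiles Egln3 went from 20.7 and 24.8 CPM in the low to 34.2 and 32.5 in the middle and 81.1 and 76.4 in the high tertile. Every value of a tertile lay above those of the tertile below it, and the log2 fold change of 1.90 ± 0.08 was the highest among the 35 members tested (edgeR adjusted p = 4.38e-07). Across the cell cycle tertiles it moved by -0.03 ± 0.08 and was not called.

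Egln1 (ENSMUSG00000031987, chromosome 8, 124908587 to 124949324, minus strand) had 115 and 107 CPM in tumour cells and 112 and 87.5 in T cells, against 47.0 and 48.2 in macrophages, 63.7 and 45.8 in monocytes and 46.5 and 66.7 in basophils. Tumour and T cell values overlapped, and those of the 3 myeloid classes lay below both. Its log2 fold change against the host mean, 0.84 ± 0.12, did not reach the fold needed for a call (edgeR adjusted p = 4.69e-06). It was 1.30, and called, without host cells that hold a glioma-marker UMI, where basophils had 11.8 and 12.6 CPM. Against macrophages alone Egln1 was higher in tumour cells (1.12 ± 0.13). In the hypoxia tertiles it stood at 77.2 and 76.6 CPM in the low, 98.4 and 89.9 in the middle and 167 and 152 in the high tertile. All values of a tertile lay above those of the tertile below it (log2 fold change 1.16 ± 0.05, edgeR adjusted p = 8.43e-07).

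Egln2 and Hif1an differed from this pair. Egln2 had 40.0 and 38.2 CPM in tumour cells, inside the 27.9 to 43.3 CPM of the host sums, and moved by -0.16 ± 0.06 between the hypoxia tertiles, which was not called. Hif1an had 10.5 and 11.5 CPM in tumour cells, inside the host range of 4.65 to 19.5 CPM. Between the hypoxia tertiles it moved by 0.50 ± 0.12, just short of the fold needed for a call (edgeR adjusted p = 0.00948). Of 5 tested genes of a list of HIF subunits and regulators, 1 was higher and 1 lower than in the host mean (25% and 15.1% of all genes). In the high hypoxia tertile 2 were higher (5.14% of all genes). Hif1a, the HIF alpha subunit itself, had 106 and 111 CPM in tumour cells against 167 to 248 in the host sums (log2 fold change -0.88 ± 0.10, not called). Vhl had 9.52 and 8.85 CPM in tumour cells and was lower than in the host mean (-1.03 ± 0.28) and higher in the high hypoxia tertile (0.53 ± 0.12).

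**Figure D4:**
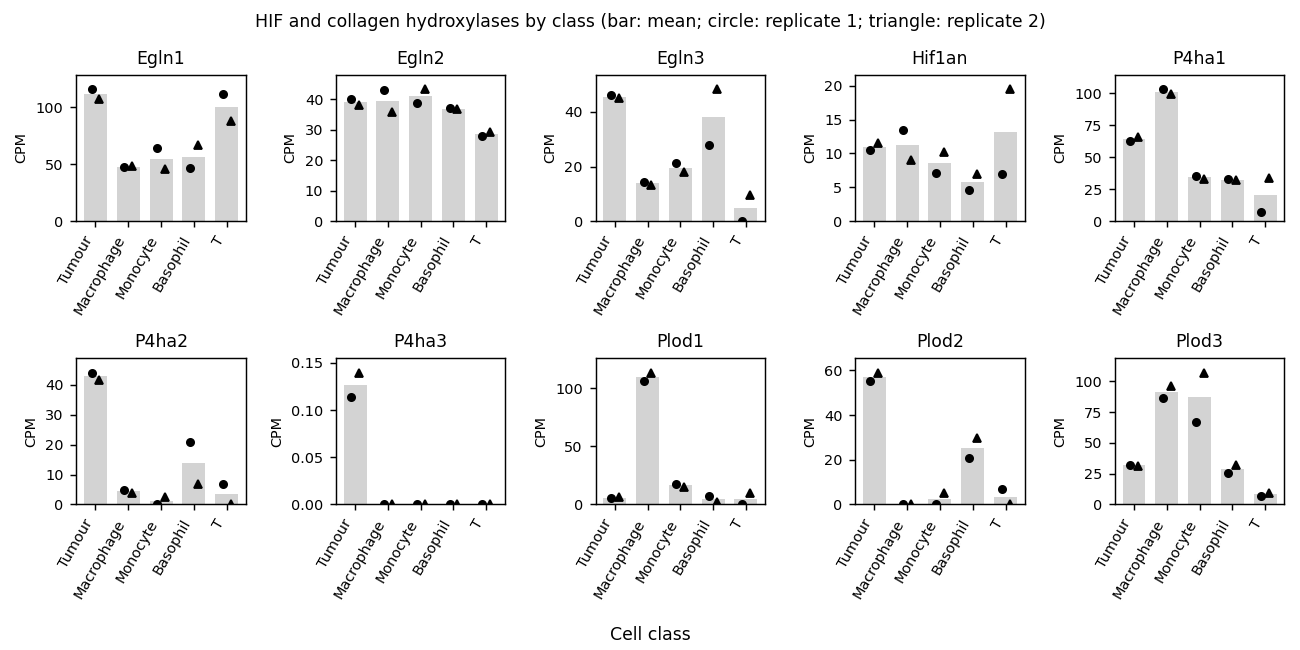
CPM of the 4 HIF hydroxylases and the 6 collagen hydroxylases in the 5 classes; the bar is the mean of both libraries, the circle replicate 1 and the triangle replicate 2, and each panel has its own axis from 0. Plod2 and P4ha2 stand highest in tumour cells, Plod1 in macrophages, and Plod3 in macrophages and monocytes.

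Collagen hydroxylases act in the endoplasmic reticulum. The prolyl 4-hydroxylase subunits P4ha1, P4ha2 and P4ha3, which pair with P4hb, make the hydroxyproline that stabilises the collagen helix, and the lysyl hydroxylases Plod1, Plod2 and Plod3 make the hydroxylysine used in cross-links and glycosylation. The bases upstream of P4ha1 and P4ha2 are printed as above because both rose with the hypoxia score and hold the motif.
P4ha1, chr10:59323046-59323295, plus strand: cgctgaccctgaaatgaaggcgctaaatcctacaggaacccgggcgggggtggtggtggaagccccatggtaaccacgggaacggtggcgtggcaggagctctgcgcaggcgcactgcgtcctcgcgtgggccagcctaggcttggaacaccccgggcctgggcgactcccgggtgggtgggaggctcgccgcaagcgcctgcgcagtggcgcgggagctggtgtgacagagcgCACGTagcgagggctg
P4ha2, chr11:54100674-54100923, plus strand: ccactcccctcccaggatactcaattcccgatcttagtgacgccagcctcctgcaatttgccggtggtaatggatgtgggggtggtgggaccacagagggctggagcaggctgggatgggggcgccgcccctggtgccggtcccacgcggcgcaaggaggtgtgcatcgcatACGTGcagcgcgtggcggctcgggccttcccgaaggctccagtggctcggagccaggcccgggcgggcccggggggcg
The match lies at position -16 in P4ha1 and at -78 in P4ha2, counted from the RefSeq start. In the GENCODE annotation P4ha2 starts at 54100095, so its printed window and match lie inside the annotated gene. No promoter entry was matched to Plod2.

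Plod2 (ENSMUSG00000032374, chromosome 9, 92542223 to 92608428, plus strand), the lysyl hydroxylase of collagen telopeptides, was found in tumour cells and not in macrophages. It had 55.2 and 59.0 CPM in tumour cells and 0 counts among 4559287 macrophage UMIs, so tumour cells were at least 86.7-fold higher than a floor of 3 counts over that class. Monocytes held 2 counts and T cells 1. The tumour level was 19.2 times that of monocytes (95% exact interval 5.33 to 159) and 19.9 times that of T cells (3.57 to 786), where the intervals cover counting error only. Both monocyte counts of Plod2 came from cells with a glioma-marker UMI, and without those cells monocytes had 0. Basophils had 20.9 and 29.9 CPM, but 0 counts once the cells with a glioma-marker UMI were left out. Plod2 was higher in tumour cells against the host mean (log2 fold change 5.51 ± 0.37, edgeR adjusted p = 1.42e-10). The size of that fitted change depends on the prior count, since 1 class had no count. With barcodes lacking a Malat1 UMI left out, Plod2 was not called against basophils (0.95, edgeR adjusted p = 0.0212).

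P4ha2 (ENSMUSG00000018906, chromosome 11, 54100095 to 54131665, plus strand) had 44.1 and 41.8 CPM in tumour cells. Host cells had 4.92 and 3.87 CPM in macrophages, 0 and 2.55 in monocytes, 20.9 and 6.90 in basophils and 6.98 and 0 in T cells. The tumour values lay above all 8 host sums, and P4ha2 was higher in tumour cells against the host mean (3.39 ± 0.30, edgeR adjusted p = 6.11e-09). The monocyte and T cell values rest on 1 count each; against these the tumour level was 29.0 (5.20 to 1145) and 15 (2.69 to 592) times as high. The monocyte count of P4ha2 came from a cell with a glioma-marker UMI. P4ha1 (chromosome 10, 59323296 to 59373304, plus strand) showed another pattern, with 63.0 and 66.0 CPM in tumour cells and 103 and 98.9 in macrophages, but 6.98 to 35.4 CPM in monocytes, basophils and T cells. It was higher in tumour cells than in T cells (1.67 ± 0.44) and was not called against the host mean (0.67 ± 0.17). Without cells that hold a glioma-marker UMI, P4ha1 had 11.8 and 12.6 CPM in basophils and was called against the host mean (1.05, edgeR adjusted p = 7.38e-05), as it was with host cells under 500 CPM of Nras (1.03) and with cells thinned to 5000 UMIs (1.17). Its contrast with macrophages was -0.75 ± 0.12, also short of a call. P4ha3 had 6 and 7 counts in tumour cells and 0 in every host class, so it was too low to compare.

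Along the hypoxia score P4ha1, P4ha2 and Plod2 rose together. P4ha2 stood at 24.5 and 25.8 CPM in the low tertile and 70.3 and 67.2 in the high tertile (1.56 ± 0.06, edgeR adjusted p = 4.18e-07). P4ha1 went from 42.8 and 41.3 to 78.8 and 88.0 CPM (1.09 ± 0.05), and Plod2 from 35.3 and 34.6 to 82.5 and 89.9 CPM (1.41 ± 0.05). In each case both libraries of the high tertile lay above both of the low tertile. By the cell cycle score, P4ha2 was lower in the high tertile, with 38.8 and 35.2 CPM against 54.4 and 54.0 (-0.59 ± 0.06, edgeR adjusted p = 3.8e-06). Plod2 (-0.33 ± 0.06) and P4ha1 (-0.28 ± 0.05) were not called there.

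Plod1 and Plod3 had their highest levels outside tumour cells. Plod1 (ENSMUSG00000019055, chromosome 4, 147909753 to 147936767, minus strand), which hydroxylates lysines of the collagen helix, had 5.23 and 6.02 CPM in tumour cells and 106 and 113 in macrophages, against 17.7 and 15.3 in monocytes, 6.97 and 2.30 in basophils and 0 and 9.73 in T cells. Macrophages stood apart from all other classes, and tumour values overlapped those of basophils and T cells. Against macrophages tumour cells were lower by a log2 fold change of -4.39 ± 0.14 (edgeR adjusted p = 5.88e-17). The call against the host mean (-1.41 ± 0.46, edgeR adjusted p = 0.012) was lost without cells that hold a glioma-marker UMI. There basophils had 0 counts and the change was 0.67 (edgeR adjusted p = 0.903). Plod3, which also adds sugars to hydroxylysine, had 31.9 and 31.5 CPM in tumour cells, 86.4 and 96.4 in macrophages, 67.3 and 107 in monocytes, 25.6 and 32.2 in basophils and 6.98 and 9.73 in T cells. It was lower in tumour cells than in macrophages (-1.63 ± 0.12) and monocytes (-1.63 ± 0.24), and higher than in T cells (2.06 ± 0.67), where 3 counts gave a ratio of 3.69 (1.26 to 17.9). The call of Plod3 against T cells was lost by DESeq2 (adjusted p = 0.0626) and with cells thinned to 5000 UMIs (edgeR adjusted p = 0.286).

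In tumour cells Plod1 was the single member lower in the high hypoxia tertile, at 6.78 and 8.10 CPM in the low and 4.74 and 4.79 in the high tertile (-0.53 ± 0.13, edgeR adjusted p = 0.0121). It was also lower in the high cell cycle tertile (-0.55 ± 0.14). Plod3 moved by -0.15 ± 0.06 and -0.06 ± 0.08 and was not called in either. DESeq2 did not call Plod1 in either comparison (adjusted p = 0.328 and 0.298). Among 7 tested genes of a list of collagens and their processing, 4 were higher in tumour cells than in the host mean and 0 lower. Of all genes tested, 25% were higher and 15.1% lower. Col4a1, a basement membrane collagen, had 30.9 and 32.2 CPM in tumour cells, 18.6 and 16.1 in basophils and 0 counts in the other host classes. These basophil values include the cells with a glioma-marker UMI, which held 40.9% and 45.4% of the basophil UMIs. The collagen chaperone Serpinh1 had 34.0 and 39.0 CPM in tumour cells. P4hb, the shared subunit, had 83.7 and 87.7 CPM in tumour cells and was higher than in T cells (1.90 ± 0.40). In the high hypoxia tertile, 1 of 11 genes of that list was higher and 4 were lower (5.14% and 5.15% of all genes). Among the lower were Col3a1 (-2.54 ± 0.22) and Serpinh1 (-0.87 ± 0.13).

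**Figure D5:**
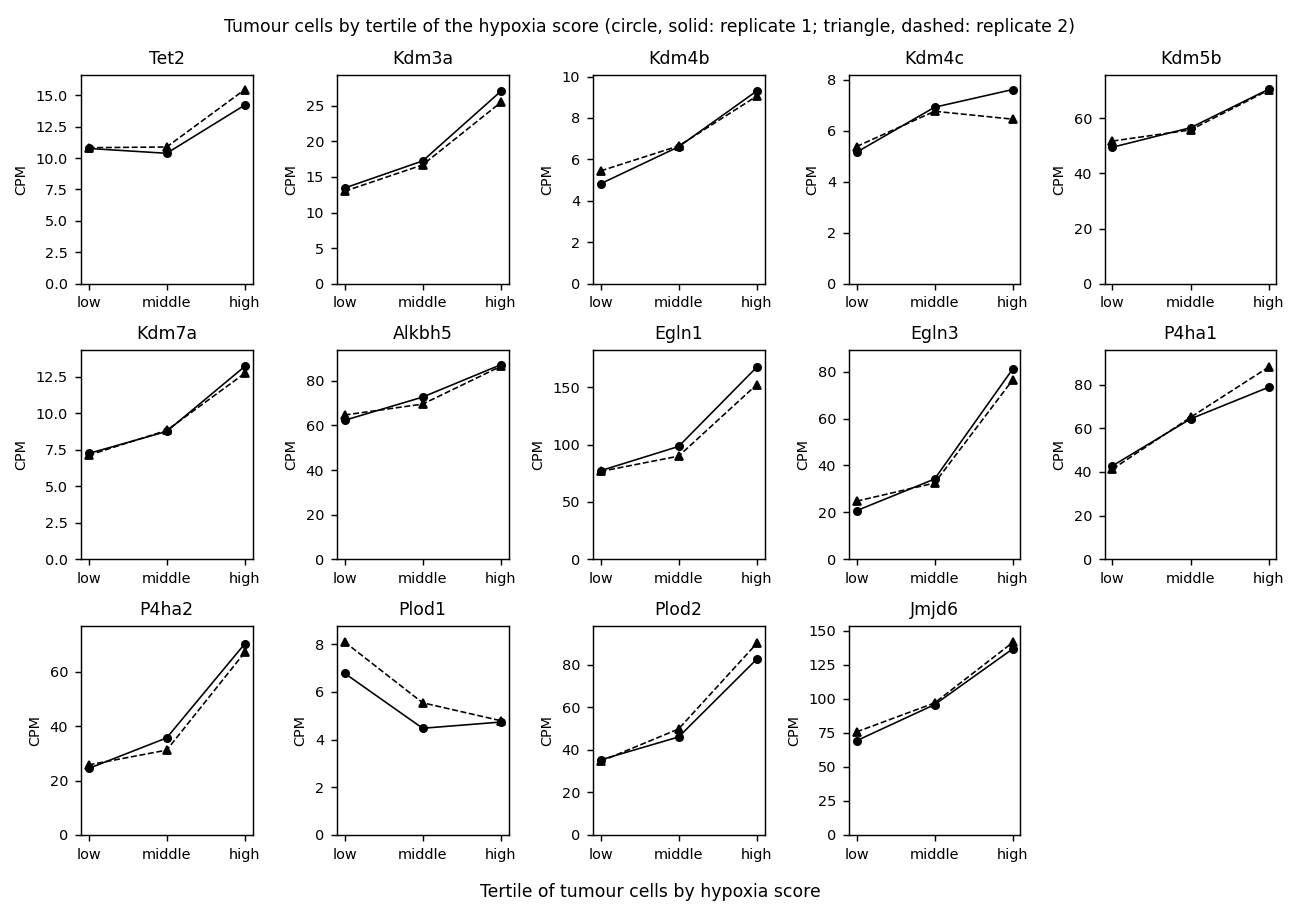
CPM in tumour cells of the 14 members called between the high and the low tertile of the hypoxia score, in the low, middle and high tertile; solid lines with circles are replicate 1, dashed lines with triangles replicate 2, and each panel has its own axis from 0. For Egln3 the values go from 20.7 and 24.8 to 81.1 and 76.4 CPM, and Plod1 is the one panel that goes down.

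Histone demethylases of the Jumonji family differ in the lysine they act on. Of 16 tested, 1 was higher and 4 were lower in tumour cells against the host mean, and 11 were not called. Over all genes tested, 25% were higher and 15.1% lower. Kdm5b, which removes methyl groups from lysine 4 of histone H3, had 59.1 and 59.4 CPM in tumour cells, 16.6 and 15.1 in macrophages, 17.7 and 28.0 in monocytes, 41.8 and 43.7 in basophils and 27.9 and 38.9 in T cells. Tumour values lay above all host sums (1.10 ± 0.15, edgeR adjusted p = 2.21e-06). Without cells that hold a glioma-marker UMI, basophils had 59.0 and 50.5 CPM and the change of 0.95 was not called. Kdm7a, which acts on lysines 9 and 27 of histone H3, had 9.80 and 9.65 CPM in tumour cells against 53.2 and 64.5 in macrophages, 138 and 153 in monocytes, 30.2 and 39.1 in basophils and 34.9 and 34.0 in T cells. All 8 host sums lay above the tumour sums, with the monocytes highest (-2.56 ± 0.22 against the host mean, edgeR adjusted p = 4.12e-09). Kdm7a was also lower in T cells than in the mean of the 3 myeloid classes (-1.22 ± 0.39, edgeR adjusted p = 0.0347; DESeq2 gave 0.0562).

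Kdm2b, which acts on lysine 36 of histone H3 and belongs to a Polycomb complex, had 13.2 and 13.9 CPM in tumour cells against 40.3 and 41.7 in macrophages and 27.9 and 68.1 in T cells. Basophils, with 6.97 and 20.7 CPM, overlapped the tumour values, and the change against the host mean was -1.12 ± 0.22. Kdm6b, which removes methyl groups from lysine 27 of histone H3, was not called against the host mean (0.05 ± 0.16), and the host classes lay on both sides of it. Tumour cells had 46.9 and 47.6 CPM, above the 14.8 and 16.3 of macrophages (1.5 ± 0.18, higher) and below the 103 and 125 of monocytes (-1.42 ± 0.21, lower). Basophils had 81.3 and 80.5 CPM of it and T cells 14.0 and 38.9. Jmjd1c (-1.15 ± 0.12) and Kdm3b (-1.11 ± 0.20) were lower in tumour cells than in macrophages and in no other pair. Without glioma-marker cells Kdm3b was also lower against the host mean (-1.08, edgeR adjusted p = 5.70e-04), and with no filter on low counts its macrophage contrast of -0.97 was not called. Kdm2a (-0.46 ± 0.17), Kdm4a (0.06 ± 0.29), Kdm5a (0.10 ± 0.14) and Phf2 (0.13 ± 0.24), given here against the host mean, were not called in any of the comparisons.

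The X-linked members were Kdm5c, Kdm6a and Phf8. Kdm6a, the relative of Kdm6b, had 11.5 and 11.3 CPM in tumour cells against 17.0 to 43.8 in the host sums and was lower (-1.18 ± 0.22, edgeR adjusted p = 9.67e-05). Phf8, which acts on lysine 9 of histone H3, had 4.74 and 4.52 CPM against 6.98 to 33.1 and was lower (-1.68 ± 0.34, edgeR adjusted p = 2.23e-04). With cells thinned to 5000 UMIs, neither Kdm6a (-0.93, edgeR adjusted p = 0.06) nor Phf8 (-1.34, edgeR adjusted p = 0.168) was called against the host mean. Kdm5c, a lysine 4 demethylase, had 19.3 and 19.0 CPM against 20.9 to 55.8 and fell short of a call (-0.66 ± 0.18, edgeR adjusted p = 0.00374). For all 3 the tumour values lay below every host sum. Xist, the RNA that coats the inactive X chromosome, had 4.44 and 7.91 CPM in tumour cells and 1284 and 1207 in macrophages (-6.85 ± 0.31 against the host mean), and its lowest host value was 292 CPM. The Y-linked relatives Kdm5d and Uty had 0 counts in every class, tumour cells included. Of the X-linked genes Ddx3x, Eif2s3x and Usp9x, which were tested alongside, none was called against the host mean. The part of X-chromosome dosage in the 3 members was not tested.

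Along the hypoxia score, 5 of 15 histone demethylases tested were higher and 0 lower by edgeR, where 5.14% and 5.15% of all genes were. At an unadjusted p under 0.05 alone, 10 had a positive and 0 a negative change. Kdm3a, a lysine 9 demethylase known as a hypoxia-induced gene, went from 13.4 and 13.0 CPM in the low tertile to 27.0 and 25.4 in the high tertile (1.10 ± 0.09, edgeR adjusted p = 3.12e-05). Both libraries of the high tertile lay above both of the low tertile. Kdm7a went from 7.24 and 7.12 to 13.2 and 12.7 CPM (0.96 ± 0.11) and Kdm4b from 4.83 and 5.45 to 9.30 and 9.05 (0.95 ± 0.13). Kdm5b went from 49.4 and 51.7 to 70.4 and 70.1 CPM (0.59 ± 0.04). Kdm4c had the smallest called change (0.53 ± 0.14), and in replicate 2 its middle tertile at 6.76 CPM was above its high tertile at 6.45. DESeq2 did not call Kdm4c (adjusted p = 0.292). By the cell cycle score, Kdm7a (7.0 and 7.85 CPM in the high against 14.0 and 13.6 in the low tertile, -0.93 ± 0.13) and Kdm4c (-0.65 ± 0.16) were lower in the high tertile. There too DESeq2 did not call Kdm4c (adjusted p = 0.175). With cells thinned to 5000 UMIs neither Kdm4c (edgeR adjusted p = 0.164) nor Kdm7a (edgeR adjusted p = 0.0932) was called by that score. Kdm6a and Kdm5c were called in neither score.

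Among the DNA enzymes, TET proteins oxidise 5-methylcytosine, and Alkbh2 and Alkbh3 repair alkylated bases. Tet2 (ENSMUSG00000040943, chromosome 3, 133463679 to 133545139, minus strand), the family member known as a tumour suppressor in blood cells, had 11.8 and 12.4 CPM in tumour cells. It had 38.5 and 35.3 CPM in macrophages, 38.9 and 50.9 in monocytes, 25.6 and 25.3 in basophils and 48.9 and 38.9 in T cells. All host sums lay above the tumour sums, and Tet2 was lower against the host mean (-1.63 ± 0.19, edgeR adjusted p = 1.9e-07) and against each class. Tet3 had 18 and 20.1 CPM in tumour cells, below the host sums (29.9 to 43.8) except the basophils of replicate 1 at 16.3, and its change of -0.81 ± 0.17 was not called. Without glioma-marker cells basophils had 23.6 and 29.5 CPM of Tet3, from 6 and 7 counts. Against monocytes alone Tet3 was lower (-1.02 ± 0.33), a call at the edge of the fold needed that was lost in 6 alternatives, among them without barcodes lacking Malat1 (-0.96), with upper-quartile factors (-0.95) and with cells thinned to 5000 UMIs (-0.58). Tet1 was rare everywhere: 7 counts in each library gave 0.133 and 0.140 CPM, macrophages had 1.34 and 0.860, basophils 4.65 and 2.30 from 2 and 1 counts, and T cells and monocytes 0 counts. Without glioma-marker cells the same basophil counts of Tet1 gave 7.86 and 4.21 CPM. A count of 0 allows up to 8.60 CPM in T cells and 4.44 in monocytes (3 counts), above the level found in tumour cells. Alkbh2 had 24.6 and 24.0 CPM in tumour cells, was higher than in basophils (1.57 ± 0.53) and was not called against the host mean (0.96 ± 0.28). The call of Alkbh2 against basophils was lost by DESeq2 (adjusted p = 0.0645), without barcodes lacking Malat1 (edgeR adjusted p = 0.0554) and with cells thinned to 5000 UMIs. Against the host mean it was called in 4 alternatives, from 1.01 without glioma-marker cells to 1.21 with host cells under 500 CPM of Nras. Alkbh3 was not called in any class comparison.

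Tet2 moved with both scores in tumour cells. It stood at 10.8 and 10.8 CPM in the low hypoxia tertile, 10.4 and 10.9 in the middle and 14.2 and 15.4 in the high tertile (0.57 ± 0.11, edgeR adjusted p = 0.00335; DESeq2 gave 0.0664). The rise was thus seen between the middle and the high tertile. In the cell cycle tertiles it went from 15.8 and 16.8 CPM in the low to 9.67 and 9.70 in the high tertile (-0.79 ± 0.11, edgeR adjusted p = 6.06e-05). Alkbh2 went from 29.4 and 30.8 to 18.6 and 17.1 CPM along the cell cycle score (-0.79 ± 0.08) and moved by 0.49 ± 0.09 with hypoxia, short of a call. The maintenance methyltransferase Dnmt1 and its partner Uhrf1 went the other way by the cell cycle score (0.80 ± 0.05 and 1.86 ± 0.09, both higher).

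No RNA enzyme differed from the host mean by enough for a call, where 25% of all genes were higher and 15.1% lower. Fto and Alkbh5 remove methyl groups from N6-methyladenosine in RNA, Alkbh8 modifies the wobble base of transfer RNA, and Alkbh1 acts on transfer RNA and other nucleic acids. By edgeR, 0 of the 4 were called there, although 2 had an adjusted p under 0.05 with a smaller fold (Alkbh1, 0.55 ± 0.19, adjusted p = 0.0146; Alkbh5, 0.55 ± 0.13, adjusted p = 0.00104). Alkbh1 was higher than in basophils (1.18 ± 0.36), but not without cells that hold a glioma-marker UMI (0.79, edgeR adjusted p = 0.115) or without barcodes lacking Malat1 (0.98). Fto had 18.4 and 20.5 CPM in tumour cells, inside the host range of 4.86 to 34.9. Alkbh5 had 74.5 and 73.8 CPM in tumour cells, above the 72.0 and 69.0 of basophils and the 38.3 to 50.9 of the other classes. Alkbh5 was the one RNA enzyme higher with hypoxia, from 62.3 and 64.6 to 87.2 and 86.4 CPM (0.56 ± 0.05, edgeR adjusted p = 4.32e-05). Fto moved by 0.14 ± 0.09 and was not called. Alkbh8 was lower in the high cell cycle tertile (7.79 and 8.13 against 9.52 and 12.6 CPM, -0.51 ± 0.13), at the edge of the fold needed. With each cell thinned to 5000 UMIs, Alkbh8 changed sign (0.36, edgeR adjusted p = 0.708).

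Of the enzymes with other substrates, Phyh (ENSMUSG00000026664, chromosome 2, 4919019 to 4938730, plus strand), the peroxisomal hydroxylase that starts the breakdown of phytanic acid, had the most negative change among the members tested. It had 3.96 and 3.37 CPM there against 66.7 and 78.7 in macrophages, 70.8 and 38.2 in monocytes, 18.6 and 13.8 in basophils and 20.9 and 58.4 in T cells. Every host sum lay above both tumour sums (-3.48 ± 0.29 against the host mean, edgeR adjusted p = 2.33e-09). Alkbh7, a mitochondrial protein, and Ogfod1, which hydroxylates a ribosomal protein, were not called against any class. Against the host mean Ogfod1 was called higher without glioma-marker cells (3.06, edgeR adjusted p = 0.0128), where basophils had 0 counts and the fitted size depends on the prior count, and also with host cells under 500 CPM of Nras (1.26) and with no filter on low counts (1.05). Tmlhe, the first enzyme of carnitine synthesis, had 1 count among 102904618 tumour UMIs and 1.95 ± 1.5 CPM in macrophages.

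Jmjd6, a lysyl hydroxylase of RNA-binding proteins, had 102 and 106 CPM in tumour cells, 49.7 and 37.4 in macrophages, 63.7 and 45.8 in monocytes, 88.3 and 87.4 in basophils and 48.9 and 63.2 in T cells. Tumour values lay above all host sums, and Jmjd6 was higher than in macrophages (1.16 ± 0.14) and T cells (1.02 ± 0.31), while its change against the host mean, 0.80 ± 0.13, was not called. Without cells that hold a glioma-marker UMI, basophils had 106.2 and 54.7 CPM of Jmjd6, so in replicate 1 they were no longer below the tumour values. The call of Jmjd6 against T cells was lost without glioma-marker cells (0.83), without barcodes lacking Malat1 (0.95), by DESeq2 (0.90), with upper-quartile factors (0.89), with filterByExpr (0.88) and with cells thinned to 5000 UMIs (1.22, edgeR adjusted p = 0.0582). The bases upstream of Jmjd6 are printed in the same way, since it rose with hypoxia outside the HIF and collagen enzymes.
Jmjd6, chr11:116843450-116843699, minus strand: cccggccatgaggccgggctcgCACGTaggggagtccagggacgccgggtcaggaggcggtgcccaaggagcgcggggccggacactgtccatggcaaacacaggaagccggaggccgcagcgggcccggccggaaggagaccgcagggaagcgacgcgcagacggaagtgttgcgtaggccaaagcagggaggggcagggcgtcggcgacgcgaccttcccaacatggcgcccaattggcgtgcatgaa
The match lies at position -228. Across the hypoxia tertiles Jmjd6 stood at 69.3 and 75.7, 95.8 and 97.0, and 137 and 141 CPM, with no overlap between tertiles (1.05 ± 0.05, edgeR adjusted p = 1.22e-06). Alkbh7 was lower in the high cell cycle tertile, at 9.12 and 7.99 against 13.8 and 13.3 CPM (-0.70 ± 0.12, edgeR adjusted p = 4.06e-04).

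The motif was counted in all members. RefSeq promoter entries (GRCm38.p6) matched 34 of the 41 genes. For 29 of these 34, bases just after a RefSeq start were found in a GENCODE transcript of that gene. ACGTG was searched on both strands of the 250 bases upstream of the RefSeq start, where the palindrome CACGTG counts once on each strand. Of 11 members higher with hypoxia that had an entry, 9 held ACGTG in at least 1 entry (Egln1, Egln3, P4ha1, P4ha2, Jmjd6, Kdm4c, Kdm5b, Kdm7a and Tet2), and Alkbh5 and Kdm3a did not. Of 17 members tested and not called, 4 held it, and Plod1 did not. In all 32851 promoters the share was 16.6%. Among genes tested in the hypoxia tertiles it was 32.8% of 366 higher genes, 17.2% of 360 lower genes and 26.6% of 6485 genes not called. The related motif GCGTG was found in 28.2% of all promoters and either motif in 38.6%. A match describes the letters of the window and does not show that a factor binds there.

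Few members were called between T cells and the myeloid classes. Against the mean of macrophages, monocytes and basophils, 0 of 37 members were higher in T cells by edgeR and 2 were lower, where 5.85% and 8.22% of all genes were. At an unadjusted p under 0.05, 2 members were above the myeloid mean. DESeq2 also called 0 higher and called 1 lower. The lower members were Kdm7a, described above, and Plod3 (-3.11 ± 0.60, edgeR adjusted p = 8.4e-04). T cell sums rest on 28 and 31 cells with 143242 and 205647 UMIs, so many members had few counts there. Egln3 (2 counts) and P4ha2 (1 count) are examples.

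Genes around the family were compared from lists. Beside each count against the host mean stand the shares of all genes, 25% higher and 15.1% lower in tumour cells. Of 13 tested dioxygenases outside the 41, 3 were higher in tumour cells against the host mean and 0 lower. They were the collagen prolyl 3-hydroxylases P3h1 (2.26 ± 0.39) and P3h3, and Ogfod3 (1.65 ± 0.37). P3h3 had 7.60 and 8.37 CPM in tumour cells and 15.7 and 15.1 in macrophages but 0 counts in T cells, so its direction depends on the host class. Of 17 genes of 2-oxoglutarate and 2-hydroxyglutarate metabolism, 6 were higher and 1 was lower. Idh1, whose counts do not separate alleles, had 72.5 and 78.9 CPM in tumour cells (1.93 ± 0.24) but 131 and 71.3 in monocytes, which overlapped. Idh2 (1.79 ± 0.15), the branched-chain transaminase Bcat1 (3.27 ± 0.23) and the serine synthesis enzyme Psat1 (2.72 ± 0.17), which releases 2-oxoglutarate, were also higher. D2hgdh, which oxidises D-2-hydroxyglutarate, was too low to test between classes, with 1.78 and 1.53 CPM in tumour cells.

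Of 23 tested DNA and histone methyltransferases and their partners, 7 were higher in tumour cells and 3 lower, where 25% and 15.1% of all genes were. Uhrf1 (2.08 ± 0.31) and Suv39h1 (1.95 ± 0.38) were higher and Nsd3 (-1.58 ± 0.10) lower, and Suv39h2 had 18.9 and 20.1 CPM in tumour cells against at most 13.8 in the host sums. Along the hypoxia score 0 of these 23 were called by edgeR in either direction. The same held for 0 of 18 metabolic genes and 0 of 10 writers and readers of N6-methyladenosine. Over all genes 5.14% were higher and 5.15% lower. At an unadjusted p under 0.05 alone, 7 of the 23 had a positive and 4 a negative change, against 3 and 5 of the 18 and 5 and 1 of the 10. One of the 13 other dioxygenases, the histone demethylase Hr, was higher (1.34 ± 0.15). Along the cell cycle score 7 of the 23 methyltransferase genes were higher and 0 lower, where 7.13% and 5.17% of all genes were. Of the m6A genes, Rbm15 (1.07 ± 0.22) and Mettl14 were higher in tumour cells against the host mean. Mettl14 had 11.9 and 12.6 CPM there and 0 counts in T cells. Siah2, a ubiquitin ligase that degrades Egln proteins, was the HIF regulator higher in tumour cells (1.04 ± 0.21).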

How the data were processed

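Single-cell RNA was measured in 2 libraries of 1 group. Per the labels' protocols, the authors used Cell Ranger 3.1 to align reads to mm10 with STAR and to count UMIs; the deposited matrices hold raw UMI counts per gene and barcode. A step that brings several runs to one depth is named there too; the totals of the libraries used here differ. The gene annotation is not given in the sources used here.

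Barcodes under 200 genes or over 15% mitochondrial UMIs were removed; cells that met more than 1 host rule were left out, and doublets were not removed (scrublet was an alternative). Counts were summed per library and class, or per library and tertile of a score among tumour cells. They were fitted with edgeR 4.0.16 (quasi-likelihood, TMM factors, library as a block) in R 4.3.3, at a mean of at least 5 CPM, with 10 sums in the class fit and 6 in each score fit. Calls needed a Benjamini-Hochberg adjusted p under 0.05 over all genes tested and an absolute log2 fold change of 1 (classes) or 0.5 (tertiles). The SE is the size of the change divided by the square root of its F statistic. The block rests on each library holding every class. The class fit and the hypoxia fit were tested on simulated data. One hypoxia gene, Aldoa, has 2 entries in the matrices and was left out of its score, leaving 14 of 15. CPM intervals (95%, exact) and floors (3 counts) cover counting error only. The p-values rest on the spread left once the block has removed the common shift between the 2 libraries. That leaves 4 residual degrees of freedom in the class fit and 2 in each score fit, with information on the spread shared over genes. This spread may be technical.

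Members and lists were chosen with earlier results of these data known. Named members are up to 5 called per substrate group and direction, those called in T cells or by a score, and a set named in any case (the TET, HIF and collagen enzymes, Fto, Alkbh5, Kdm5c, Kdm6a and Kdm6b). Up to 4 called genes of each other list, and 10 genes in any case, are named too, except 1 that is not reported here. Others (Alkbh1, Alkbh3, Jmjd1c, Kdm2a, Kdm3b, Kdm4a, Kdm5a, Kdm8, Phf2, Tmlhe and Ogfod1) were named after their values were seen. Gene coordinates come from the GENCODE M21 annotation of GRCm38 and promoters from RefSeq. Alternatives were DESeq2 1.42.0, other factors, filters and cell rules, cells thinned to 5000 UMIs, and each library left out.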

Additional observations from a re-analysis of the deposited data

Results flagged for a closer look

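Members were also counted in barcodes that enter no comparison; the series has no control sample for them. In the 264 and 174 cells that passed the filters and met no class rule, the 41 genes summed to 1135 CPM on average over the libraries (1156 in replicate 1 and 1114 in replicate 2, 8246 UMIs in all). In the 964 and 820 barcodes removed by the filters, they summed to 334 CPM (350 and 317, 1531 UMIs). Among the cells that met no rule, those with a glioma-marker UMI held 83.2% and 79.9% of the UMIs. The removed barcodes had a median of 86.6% and 85.3% mitochondrial UMIs, which count in the total that CPM divides by. The part of either in these sums was not tested.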

How the results depend on the processing

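Each library holds every class, so the library was a block; without the replicate block the counts were unchanged for all 10 counts of members (4 higher and 7 lower against the host mean). Without either replicate no test remains, and the log2 ratios of called members with counts in both groups kept their sign. Of the 4 members higher than the host mean, the count became 7 with no filter on low counts, 8 with host cells under 500 CPM of Nras and 7 without host cells that hold a glioma-marker UMI, where 21.4%, 27.4% and 26.2% of all genes were higher. The 7 lower became 4 with cells thinned to 5000 UMIs, which leaves fewer cells and UMIs. There 10.1% of all genes were lower, against 15.1% in the main fit. In T cells the 0 higher became 1 without glioma-marker cells (7.32% of all genes). The 2 lower became 1 by DESeq2 (7.39% of all genes), 1 with upper-quartile factors (6.90%) and 0 when thinned (4.03%). Of members called against every host class, the 2 higher became 1 with filterByExpr, 1 without barcodes lacking Malat1 and 0 when thinned, and the 3 lower became 0 when thinned. By the hypoxia score, the 13 higher ranged from 9 (thinned, where 3.13% of all genes were higher) to 15. The 1 lower became 0 by DESeq2 (3.63% of all genes), when thinned (2.92%) and with 4 groups of cells in place of 3 (6.87%). It became 2 with filterByExpr (5.82%) or no filter (3.95%). By the cell cycle score, the 0 higher became 1 with filterByExpr (7.33% of all genes) and 1 with no filter (5.05%). The 8 lower by that score became 5 by DESeq2 (2.84% of all genes) and 4 when thinned (2.80%), against 5.17% in the main fit. Plod1 against the host mean reversed to 0.78 with host cells under 500 CPM of Nras and to 0.67 without glioma-marker cells, and Alkbh8 by the cell cycle score to 0.36 when thinned. The cause of these changes was not tested, for thinning too, since it changes the cells and the UMIs together. Leaving out monocytes with Ngp or Retnlg, chosen after seeing the data, changed none of the calls of single members. It removed only 4 and 2 cells, with 10.3% and 4.49% of the monocyte UMIs, and used none of the other neutrophil markers. The effect of neutrophil RNA in that class was therefore not tested.

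Of all genes called against the host mean, 62.3% were higher, against 50.9% by DESeq2 and 75.4% with no filter. The median log2 fold change of all genes moved from 0.25 to 0.12 by DESeq2. By the cell cycle score the share was 58.0%, against 69.6% by DESeq2, 50.4% with upper-quartile factors and 52.1% with filterByExpr. T cell and monocyte sums rest on few cells, which limits what low members can show there.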
